A study of Homo sapiens with 8 samples.

Results

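A set of 9 genes around the tumour suppressor p53 were followed here across 2 human multiple myeloma cell lines and 2 hairpin constructs. The 9 are TP73 (a relative of p53), the p53 inhibitors MDM2 and MDM4, the targets CDKN1A, TP53INP1, ZMAT3, FAS and RRM2B, and PURPL, a long noncoding RNA that p53 induces. They were chosen by gene symbol in the platform annotation, with the row of highest mean level per gene. Of the 9, 5 had a named row (TP73, MDM4, TP53INP1, RRM2B and PURPL), out of 14884 genes named in all. MDM2, CDKN1A, ZMAT3 and FAS had none and were not analysed here. Each of the 5 had 1 row, so the choice by mean level decided nothing.

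RNA was hybridised to GeneChip Human Gene 2.0 ST arrays, 8 in all and 2 per group. The groups were NCI-H929 cells with a short hairpin against SIRT6 (shSIRT6), NCI-H929 cells with a scramble hairpin, MM1.S cells with shSIRT6 and MM1.S cells with the scramble hairpin. All groups carry a hairpin construct, and SIRT6 is an NAD-dependent deacetylase of chromatin. The labels do not tell whether both arrays of a group stem from separate cultures, so the p-values reflect array-to-array spread that may be technical only.

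p53 is a transcription factor that is stabilised after DNA damage and other stress and switches on genes of cell cycle arrest, cell death, DNA repair and metabolism. MDM2 and MDM4 hold it in check, MDM2 by marking it for degradation and MDM4 by covering its activation domain, and MDM2 is itself a p53 target, which closes a feedback loop. TP73 encodes p73, which binds the same DNA element.

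The promoter of PURPL is shown because PURPL differed most between the lines among these genes, and that of TP73 because, of the 5, it differed most with the hairpin in MM1.S. Both are from RefSeq, build GRCh38.p14, and run from 250 bases before to 50 bases after a transcript start. Capitals mark matches to the p53 half-site consensus, a 10-base motif that is its own reverse complement, so that both strands were searched at once. PURPL lies on chromosome 5 (chr5:27472042-27472341, plus strand) and the first of 3 TP73 starts on chromosome 1 (chr1:3652266-3652565, plus strand).
PURPL: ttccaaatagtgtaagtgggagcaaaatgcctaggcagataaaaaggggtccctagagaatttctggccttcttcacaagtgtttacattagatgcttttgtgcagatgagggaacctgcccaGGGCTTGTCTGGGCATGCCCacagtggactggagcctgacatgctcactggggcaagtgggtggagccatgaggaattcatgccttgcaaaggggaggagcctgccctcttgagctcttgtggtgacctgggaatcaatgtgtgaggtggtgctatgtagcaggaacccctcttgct
TP73: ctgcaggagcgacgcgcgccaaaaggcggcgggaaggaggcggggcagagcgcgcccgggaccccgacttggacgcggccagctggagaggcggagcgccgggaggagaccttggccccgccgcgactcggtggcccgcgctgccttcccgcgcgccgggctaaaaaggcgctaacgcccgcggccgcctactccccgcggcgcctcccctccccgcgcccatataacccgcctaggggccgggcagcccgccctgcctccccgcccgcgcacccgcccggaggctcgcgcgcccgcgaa

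The PURPL window held 2 half-sites, 127 and 117 bases before the start, side by side with a gap of 0 bases, which is the arrangement of a full p53 element. At least 1 half-site was found in 6.63% of 35116 promoter windows. A pair that did not overlap, with a gap of at most 13 bases, was found in 10 windows, 0.0285% of all. Besides PURPL these 10 included DDB2, a DNA repair gene known as a p53 target, the noncoding RNA LNCTAM34A and PTCHD4. The others were MCC, DYNC2H1, EIF2AK3-AS1, LOC105376065, LOC124901737 and LOC124903192. Of the 10 genes, PURPL, PTCHD4 and MCC had a named row. PTCHD4 lay between 3.18 and 3.56 on the NCI-H929 arrays and between 3.04 and 3.49 on the MM1.S arrays, and MCC between 7.24 and 7.48 and between 7.58 and 7.82, and neither showed a line difference of the size of that of PURPL. The 3 windows of TP73 and that of MDM4 held 0 half-sites, as did all windows of the listed genes CDKN1A, MDM2 and ZMAT3. Of the 7 listed genes with an entry, 2 held any half-site, PURPL and FAS. FAS had 1 half-site, in 1 of its windows. TP53INP1 and RRM2B had no entry. Only exact matches inside these windows were counted. A site with a mismatch or farther from the start was missed, so 0 half-sites does not show that a gene lacks a p53 site. A match is a property of the letters and does not show binding.

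As a check of the labels, MAF, the gene translocated in MM1.S, had log2 levels of 8.07 to 8.27 in NCI-H929 and 9.53 to 9.85 in MM1.S, while FGFR3, translocated in NCI-H929, had 6.28 to 6.77 and 4.56 to 4.89. Of the 7 plasma cell markers with a named row, IRF4, XBP1, MZB1 and SLAMF7 lay between 10.02 and 11.74 on every array, SDC1 between 8.18 and 8.73, CD38 between 7.96 and 9.28 and POU2AF1 between 5.19 and 5.48. The 5 named T and NK cell markers lay between 3.57 and 5.47, a range that POU2AF1 overlaps, the myeloid markers LYZ, CD14, CSF1R and MPO between 2.31 and 4.82, and the stromal markers DCN and LUM between 1.99 and 2.73. SDC1, which encodes the plasma cell surface protein syndecan-1, was higher with shSIRT6 in MM1.S by 0.52 ± 0.091 (SE; limma, Benjamini-Hochberg adjusted p = 0.0461). It was the 1 plasma cell marker of 7 called there (14.3%, against 1.33% of all genes). The call of SDC1 was lost with the replicate number as a block and with the MM1.S arrays alone, where 0 genes were called. Of the 7 markers 3 were higher and 4 lower with shSIRT6, with a median of −0.015. The part of SDC1 in other results was not tested. SIRT6 was at 6.25 and 6.31 with shSIRT6 and 6.53 and 6.97 with scramble in NCI-H929, and at 5.60 and 5.78 against 6.09 and 5.88 in MM1.S. Its log2 difference, shSIRT6 minus scramble, was −0.47 ± 0.16 (SE) in NCI-H929 and −0.30 ± 0.16 in MM1.S, and neither passed (limma, Benjamini-Hochberg adjusted p = 0.276 and 0.355), so the knockdown itself was not called on these arrays. Array medians ran from 3.88 to 3.97, and arrays of 1 group correlated at 0.989 to 0.992 across all rows.

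**Figure D1:**
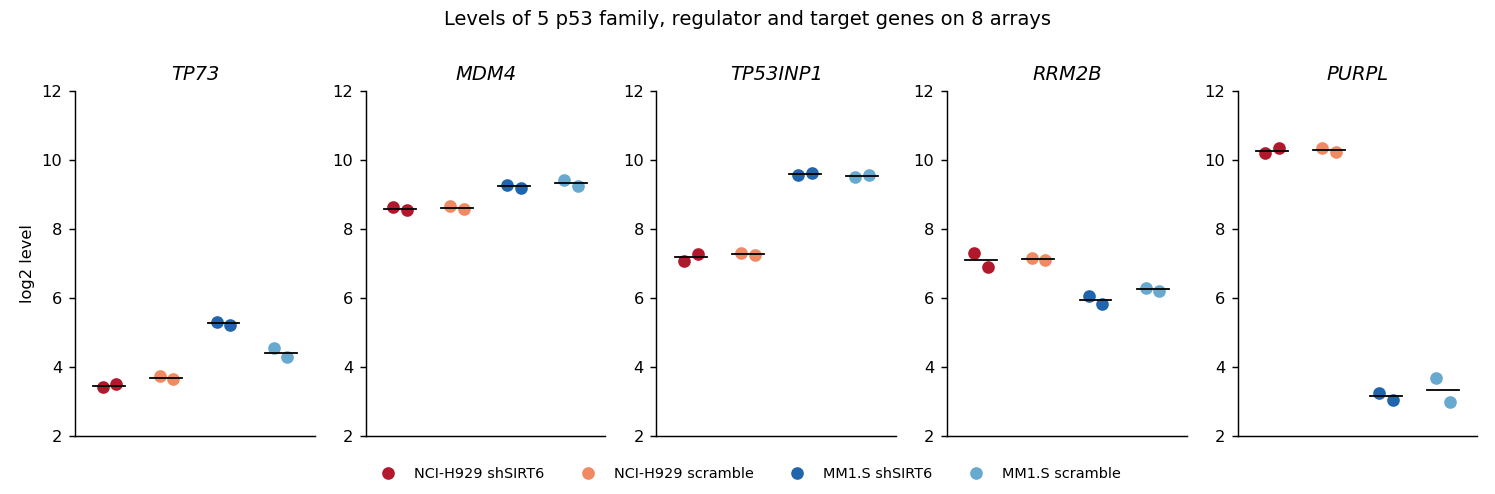
Log2 levels of TP73, MDM4, TP53INP1, RRM2B and PURPL on each of the 8 arrays, by group; points are arrays and black lines the mean of 2 arrays. PURPL lies above 10 on all NCI-H929 arrays and below 4 on all MM1.S arrays, TP53INP1 and MDM4 are lower and RRM2B higher in NCI-H929, and TP73 is highest in MM1.S with shSIRT6.

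Between the lines the 5 genes did not move one way. PURPL and RRM2B were higher in NCI-H929, and TP53INP1, MDM4 and TP73 were lower there, with either construct. Values are log2 levels as deposited, 1 unit being a doubling, and 12734 genes with a mean above 3.045 were tested. A gene was called where its p, adjusted by Benjamini-Hochberg across them, was below 0.05. All 5 passed this filter on low levels, and each had a mean above it in all 4 groups. The arrays of the lines did not overlap for any of the 5 with either construct, which held for 67.9% of all genes with scramble and 65.7% with shSIRT6.

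TP73, the relative of p53, read 3.42 and 3.51 in NCI-H929 with shSIRT6 and 3.76 and 3.65 with scramble, against 5.31 and 5.23 in MM1.S with shSIRT6 and 4.55 and 4.29 with scramble. NCI-H929 sat not far above the level of the filter, and the order from low to high was NCI-H929 with shSIRT6, NCI-H929 with scramble, MM1.S with scramble and MM1.S with shSIRT6. With scramble the NCI-H929 minus MM1.S difference was −0.72 and with shSIRT6 it was −1.81. Both are given as descriptions, since TP73 was chosen with its change in MM1.S known and both use MM1.S arrays of that value. One row covers all TP73 transcripts, so forms with and without the activation domain cannot be told apart.

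Of the listed regulators only MDM4 could be read. Its level was 8.65 and 8.54 in NCI-H929 with shSIRT6 and 8.67 and 8.58 with scramble, against 9.29 and 9.19 in MM1.S with shSIRT6 and 9.41 and 9.26 with scramble. Every NCI-H929 array lay below every MM1.S array. The difference was −0.71 ± 0.11 (SE) with scramble and −0.65 ± 0.11 with shSIRT6 (limma, Benjamini-Hochberg adjusted p = 0.00139 and 0.00223), a level in NCI-H929 lower by a factor of 1.64 and 1.56.

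Of the protein-coding targets, TP53INP1, a stress protein that promotes p53 activity, cell death and autophagy, differed most. It read 7.09 and 7.28 in NCI-H929 with shSIRT6 and 7.31 and 7.24 with scramble, against 9.57 and 9.61 in MM1.S with shSIRT6 and 9.52 and 9.57 with scramble. The lines were separated by over 2 log2 units, and within a line the constructs overlapped or shared a value. The difference was −2.27 ± 0.10 (SE) with scramble and −2.41 ± 0.10 with shSIRT6 (limma, Benjamini-Hochberg adjusted p = 5.47e-06 and 4.64e-06), or 4.82-fold and 5.30-fold lower in NCI-H929.

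RRM2B, a subunit of ribonucleotide reductase that supplies nucleotides for DNA repair and mitochondrial DNA, went the other way. It read 7.30 and 6.89 in NCI-H929 with shSIRT6 and 7.17 and 7.12 with scramble, against 6.06 and 5.84 in MM1.S with shSIRT6 and 6.31 and 6.20 with scramble. Every NCI-H929 array lay above every MM1.S array. The difference was 0.89 ± 0.15 (SE) with scramble and 1.15 ± 0.15 with shSIRT6 (limma, Benjamini-Hochberg adjusted p = 0.0027 and 0.00081).

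PURPL, whose RNA is known to keep basal p53 levels low, read 10.20 and 10.34 in NCI-H929 with shSIRT6 and 10.36 and 10.24 with scramble. In MM1.S it read 3.26 and 3.06 with shSIRT6 and 3.69 and 3.01 with scramble, around the filter level of 3.045. The arrays of both constructs overlapped within each line. With scramble the difference was 6.95, given as a description because PURPL was chosen with it known. On the shSIRT6 arrays it was 7.11, a 138-fold higher level in NCI-H929. This too is a description, since the lines are the same and the choice made a large difference there likely. The rank of PURPL by size, number 2 among all genes tested with either construct, belongs to that description, since PURPL was chosen with its scramble difference known. Background intensities were not used here, so the level in MM1.S may be no signal at all and the fold has no firm upper end.

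TP73 and PURPL were left out here, since values of these lines were used in choosing them. Of the others, 3 of 3 genes were called between the lines with scramble, where 38.3% of all genes tested were called. With shSIRT6 3 of 3 were called, where 37.9% of all genes were. MDM4, TP53INP1 and RRM2B kept their sign and their call in both sets of arrays, which share no array.

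**Figure D2:**
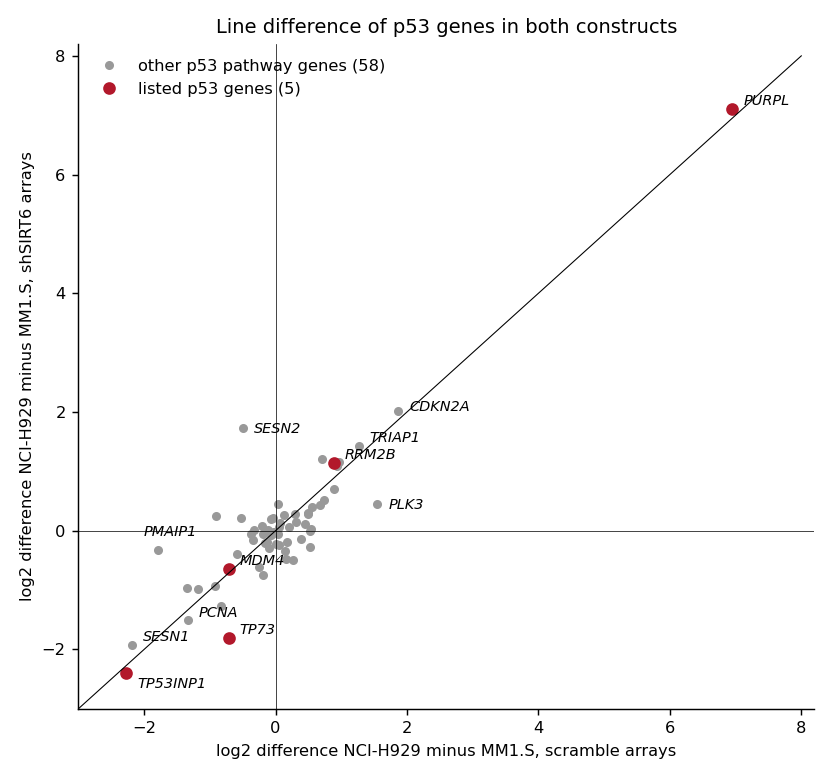
Log2 difference NCI-H929 minus MM1.S on the scramble arrays (horizontal) and on the shSIRT6 arrays (vertical) for 5 listed p53 genes (red) and 58 other genes of the p53 pathway (grey); the diagonal marks equal differences. PURPL stands alone near 7 on both axes, while SESN2, PMAIP1, PLK3 and TP73 lie off the diagonal.

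The wider p53 pathway was described with a list of 103 regulators and direct targets, of which 59 had a named row and 58 were tested. With scramble 29 of the 58 were called between the lines (50%, against 38.3% of all genes), 17 higher and 12 lower in NCI-H929 (20% and 18.3% of all genes), with a median of 0.04 against 0.03 over all genes. With shSIRT6 23 were called (39.7%, against 37.9%), 12 higher and 11 lower (18.4% and 19.5% of all genes), with a median of 0.00 against 0.00. The genes called with the same sign in both sets of arrays numbered 17, or 29.3% of the 58, against 28.8% of all genes tested. These 17 are 58.6% of the first group of calls and 73.9% of the second. Over all genes those shares of the calls were 75.3% and 76.1%. Calls in the pathway went both ways between the lines, as they did over all genes.

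Arrest genes went both ways. CCNG1, cyclin G1, read 9.36 and 9.32 in NCI-H929 with shSIRT6 and 9.51 and 9.46 with scramble, against 8.27 and 8.08 in MM1.S with shSIRT6 and 8.56 and 8.48 with scramble. Its difference was 0.97 ± 0.10 (SE) with scramble and 1.17 ± 0.10 with shSIRT6 (limma, Benjamini-Hochberg adjusted p = 0.000302 and 0.000121). PLK3, a stress kinase, was higher in NCI-H929 by 1.55 ± 0.13 with scramble and 0.46 ± 0.13 with shSIRT6 (adjusted p = 9.4e-05 and 0.027). Of 8 tested arrest targets 3 were higher and 2 lower with either construct (62.5% called, against 38.3% of all genes with scramble and 37.9% with shSIRT6).

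Among 12 apoptosis targets 4 were higher and 3 lower in NCI-H929 with scramble (58.3% called, against 38.3% of all genes), and 3 were higher and 1 lower with shSIRT6 (33.3%, against 37.9%). PMAIP1, the BH3-only death protein NOXA, read 5.76 and 5.45 in NCI-H929 with shSIRT6 and 4.99 and 5.0 with scramble, against 5.87 and 5.99 in MM1.S with shSIRT6 and 6.98 and 6.59 with scramble. It was lower in NCI-H929, with a log2 difference of −1.79 ± 0.16 (SE) with scramble, and with shSIRT6 the difference was −0.33 ± 0.16, which did not pass (limma, Benjamini-Hochberg adjusted p = 0.000129 and 0.155). TRIAP1, a small survival protein of mitochondria, was higher in NCI-H929 by 1.27 ± 0.17 and 1.43 ± 0.17 (adjusted p = 0.000867 and 0.000482).

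PCNA, the sliding clamp of DNA polymerases and the 1 repair target tested, was lower in NCI-H929, with a log2 difference of −1.34 ± 0.096 (SE) with scramble and −1.51 ± 0.096 with shSIRT6. In the metabolism list SESN1, a p53-induced inhibitor of mTORC1, read 7.17 and 7.13 in NCI-H929 with shSIRT6 and 7.18 and 7.05 with scramble, against 9.13 and 9.01 in MM1.S with shSIRT6 and 9.35 and 9.25 with scramble. That is a difference of −1.92 ± 0.10 with shSIRT6 and −2.19 ± 0.10 with scramble, close in size to that of TP53INP1. CDKN2A, which encodes the kinase inhibitor p16 and the MDM2 inhibitor ARF, read by 1 row that does not part them, was at 5.02 and 5.40 in NCI-H929 with shSIRT6 and 5.05 and 5.10 with scramble, against 2.98 and 3.41 in MM1.S with shSIRT6 and 3.29 and 3.12 with scramble. It was higher in NCI-H929 by 1.87 ± 0.18 with scramble and 2.02 ± 0.18 with shSIRT6, and its level in MM1.S lay around that of the filter. Of 13 p53 regulators tested, 5 were higher and 0 lower in NCI-H929 with scramble (38.5% called, against 38.3% of all genes), and 2 were higher and 4 lower with shSIRT6 (46.2%, against 37.9%). Among 10 metabolism and autophagy targets 2 were higher and 3 lower with scramble (50%), and 3 were higher and 2 lower with shSIRT6 (50%). Of 12 other targets 3 were higher and 2 lower with scramble (41.7%), and 1 was higher and 1 lower with shSIRT6 (16.7%). Adjusted p over PCNA, SESN1 and CDKN2A and both constructs ran from 6.41e-06 for SESN1 to 0.000174 for CDKN2A, both with scramble (limma, Benjamini-Hochberg).

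**Figure D3:**
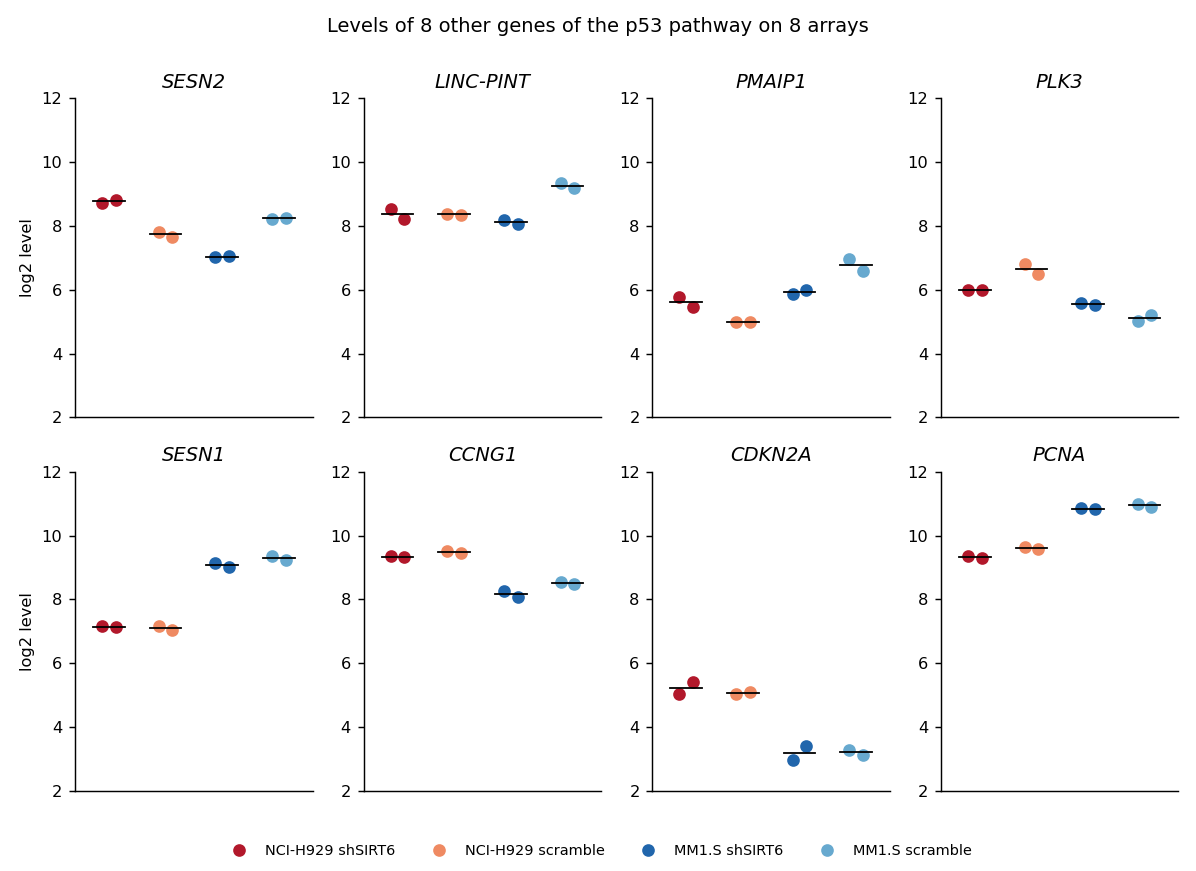
Log2 levels of SESN2, LINC-PINT, PMAIP1, PLK3, SESN1, CCNG1, CDKN2A and PCNA on each of the 8 arrays, by group; points are arrays and black lines the mean of 2 arrays. SESN1, CCNG1, CDKN2A and PCNA separate the lines, while SESN2 moves in opposite directions with shSIRT6 and LINC-PINT is lower with shSIRT6 than with scramble in MM1.S.

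The difference between shSIRT6 and scramble was small for most of these genes, and that of SIRT6 itself was not called in either line. In NCI-H929 none of the 4 genes tested was called, PURPL being left out because it was chosen on the scramble arrays (limma, 0 at an adjusted p below 0.05 and 0 at an unadjusted p below 0.05), where 0.0236% and 14.5% of all genes were. TP73 had −0.24 ± 0.12 (SE), with a 95% interval of −0.52 to 0.04 and an adjusted p of 0.396. Both its shSIRT6 arrays lay below both scramble arrays. Arrays of the constructs did not overlap, in one direction or the other, for 46.6% of all genes in NCI-H929. TP53INP1 had −0.09 ± 0.10 (95% interval −0.33 to 0.15), RRM2B −0.05 ± 0.15 (−0.41 to 0.31) and MDM4 −0.03 ± 0.11 (−0.28 to 0.22). Their adjusted p ran from 0.715 to 0.914. PURPL, as a description, had −0.03. Quantile normalization turned the sign of TP53INP1, RRM2B, MDM4 and PURPL (0.04 for MDM4, 0.02 for TP53INP1, 0.06 for RRM2B and 0.02 for PURPL), and cyclic loess that of MDM4 (0.05), RRM2B (0.01) and PURPL (0.04). Leaving out 1 array also turned signs, with highest values of 0.03 for MDM4, 0.005 for TP53INP1, 0.16 for RRM2B and 0.04 for PURPL, so none of these 4 has a settled direction.

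In MM1.S TP73 was higher with shSIRT6, at 5.31 and 5.23 against 4.55 and 4.29 with scramble. The difference of 0.85, or 1.80-fold, is a description, since TP73 was chosen with this value known, and it was 0.98 without scramble replicate 1 and 0.72 without scramble replicate 2. None of MDM4, TP53INP1 and RRM2B was called (limma, 0 at an adjusted p below 0.05 and 0 at an unadjusted p below 0.05), where 1.33% and 19.6% of all genes were. RRM2B had −0.31 ± 0.15 (SE, 95% interval −0.66 to 0.05), MDM4 −0.10 ± 0.11 (−0.34 to 0.15) and TP53INP1 0.05 ± 0.10 (−0.20 to 0.29). Their adjusted p ran from 0.316 for RRM2B to 0.842 for TP53INP1. PURPL, as a description, had −0.19, which turned to 0.15 without scramble replicate 1 of MM1.S, which read 3.69.

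**Figure D4:**
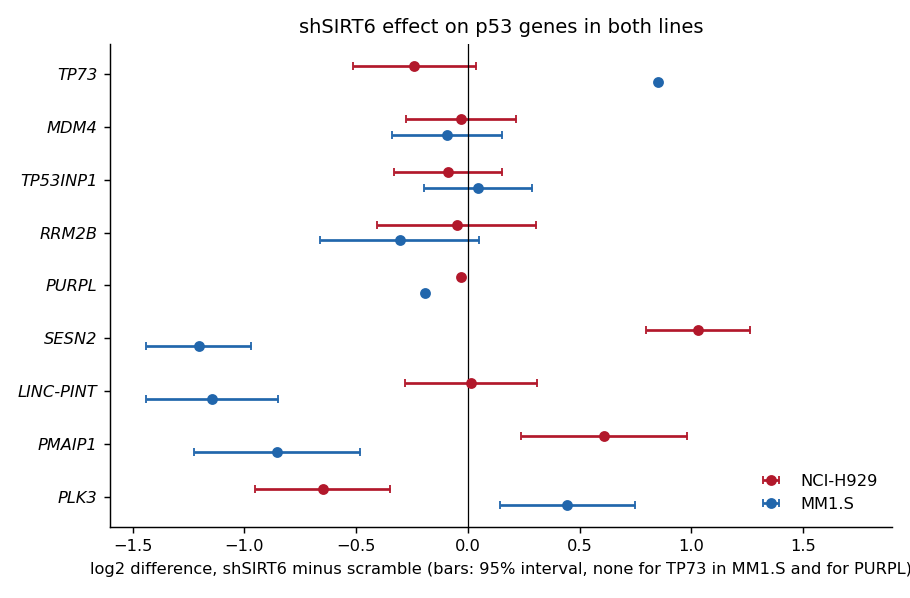
Log2 difference shSIRT6 minus scramble in NCI-H929 (red) and MM1.S (blue) for the 5 listed p53 genes and for SESN2, LINC-PINT, PMAIP1 and PLK3; bars are 95% intervals from limma's fit, with none drawn for TP73 in MM1.S or for PURPL. MDM4, TP53INP1 and RRM2B have intervals that include 0 in both lines, and SESN2 lies at 1.03 in NCI-H929 and −1.21 in MM1.S.

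In the wider list few genes passed the adjusted test with the hairpin, while the share at an unadjusted p below 0.05 was above that of all genes. That share was 16 of 58 in NCI-H929 (27.6%, against 14.5%), 15 of 58 in MM1.S (25.9%, against 19.6%) and 14 of 58 for the difference of the effects (24.1%, against 13.8%). In NCI-H929 1 of 58 was called after adjustment (1.72%, against 0.0236% of all genes), SESN2, a sestrin that inhibits mTORC1 and that both p53 and the stress factor ATF4 induce. SESN2 read 8.71 and 8.83 with shSIRT6 and 7.81 and 7.67 with scramble in NCI-H929, and 7.02 and 7.05 against 8.23 and 8.25 in MM1.S. It rose by 1.03 ± 0.10 (SE) in NCI-H929 and fell by 1.21 ± 0.10 on the log2 scale in MM1.S (limma, Benjamini-Hochberg adjusted p = 0.0484 and 0.00599). The median over the list in NCI-H929 was −0.15, against −0.05 over all genes.

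In MM1.S 2 of 58 were called, both lower (3.45%, against 1.12% of all genes called lower), and the median over the list was −0.07 against 0.01 over all genes. Besides SESN2 this was LINC-PINT, a p53-induced noncoding RNA, which read 8.19 and 8.06 with shSIRT6 and 9.34 and 9.20 with scramble. In NCI-H929 it read 8.53 and 8.23 with shSIRT6 and 8.37 and 8.36 with scramble. LINC-PINT thus fell in MM1.S, by 1.15 ± 0.13 (SE) on the log2 scale, while the difference in NCI-H929 was 0.02 ± 0.13 (limma, Benjamini-Hochberg adjusted p = 0.0152 and 0.97). Its 3 rows gave −1.15, −0.55 and −1.26 in MM1.S and 0.02, 0.04 and 0.06 in NCI-H929. The call in MM1.S was lost without any 1 of the 4 MM1.S arrays (adjusted p from 0.0647 to 0.116) and without either scramble array of NCI-H929 (0.052 each), and that of SESN2 without any 1 of the 4 MM1.S arrays (0.0576 to 0.0841). In NCI-H929 leaving out any 1 of the 8 arrays ended the call of SESN2 (0.189 to 0.421).

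Whether the hairpin acted differently in the lines was tested as the difference of the effects, NCI-H929 minus MM1.S. Of MDM4, TP53INP1 and RRM2B none was called (limma, 0 at an adjusted p below 0.05 and 0 at an unadjusted p below 0.05), where 0.204% and 13.8% of all genes were. RRM2B had 0.26 ± 0.22 (SE), MDM4 0.07 ± 0.15 and TP53INP1 −0.14 ± 0.15, and PURPL, as a description, had 0.16. In the wider list 1 of 58 was called (1.72%), SESN2 at 2.24 ± 0.14 (adjusted p = 0.00386). PMAIP1 had 1.47 ± 0.22, LINC-PINT 1.16 ± 0.18 and PLK3 −1.10 ± 0.18, which did not pass (adjusted p = 0.0712, 0.0712 and 0.0869).

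SESN2, PMAIP1 and PLK3 had unequal line differences with the 2 constructs. That of SESN2, NCI-H929 minus MM1.S, was −0.50 ± 0.10 (SE) with scramble and 1.74 ± 0.10 with shSIRT6 (limma, Benjamini-Hochberg adjusted p = 0.00567 and 1.85e-05). It was the 1 gene of the 58 called with opposite signs, where 25 of 12734 genes were. PMAIP1 was 0.61 ± 0.16 (SE) with shSIRT6 relative to scramble in NCI-H929 and −0.86 ± 0.16 in MM1.S (limma, Benjamini-Hochberg adjusted p = 0.213 and 0.055). PLK3 was −0.65 ± 0.13 in NCI-H929 and 0.45 ± 0.13 in MM1.S (adjusted p = 0.185 and 0.134). Within each line the shSIRT6 and scramble arrays of PMAIP1 and PLK3 did not overlap. That held for 46.6% of all genes in NCI-H929 and 50.7% in MM1.S. None of the 4 hairpin differences of PMAIP1 and PLK3 passed.

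Genes with the most similar pattern were found by the mean absolute difference, over the 8 arrays, of log2 levels centred on each gene's own mean. For TP73 they were JAKMIP1, DUSP4 and MTMR10, at 0.0981, 0.124 and 0.171 log2 units, against a median of 0.649 over all genes. JAKMIP1 averaged 5.62 in NCI-H929 with shSIRT6 and 5.74 with scramble, against 7.27 in MM1.S with shSIRT6 and 6.55 with scramble. For PURPL they were NES, TSSC2 and FCRL2, at 0.563, 0.906 and 0.961, against a median of 3.51. NES, the intermediate filament nestin, averaged 10.81 in NCI-H929 with shSIRT6 and 10.87 with scramble, against 5.10 in MM1.S with shSIRT6 and 4.75 with scramble. None of the 6 is among the 9 genes or in the wider list.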

How the data were processed

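The authors deposited log2 expression values, 1 per transcript cluster. The submitters' processing notes name RMA, Transcriptome Analysis Console and hg19, without versions. The table holds 48226 rows. Of these 16098 carry 1 gene symbol in GEO's platform annotation, 0 carry several and 32128 are unnamed here. All 8 columns were used (0 others present).

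The row with the highest mean was kept per gene, and testing was limited to genes above the 30th percentile of row means (3.045). All 8 arrays entered 1 limma fit with 4 group means (version 3.58.1, R 4.3.3, 4 residual and 3.43 prior degrees of freedom), with Benjamini-Hochberg adjustment over 12734 genes. The code was tested on simulated data. The smallest two-sided p of an exact permutation of 2 arrays against 2 is 0.333. The number of arrays limits the precision.

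The members and lists were chosen with earlier results of these data known. Named genes are the members, SIRT6 and, in each contrast, the called genes of the wider list (the 6 with the lowest p where there were more). PMAIP1, PLK3 and LINC-PINT are also given in contrasts where this rule did not name them. The hairpin effect on TP73 in MM1.S and the line difference of PURPL with scramble carry no test. Neither does any other value of TP73 that uses MM1.S arrays or any other value of PURPL, an exclusion added after the data were seen. The replicate differences of the constructs were hardly correlated (r = −0.00108 in NCI-H929 and 0.0767 in MM1.S), and the main fit used no replicate block. The labels do not tell whether arrays with the same replicate number form a pair. Alternatives changed the row per gene, filter, normalization, variance model, array weights, arrays in the fit, replicate block and each array.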

Additional observations from a re-analysis of the deposited data

Results flagged for a closer look

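SESN2 had opposite hairpin effects in the lines, and the difference, NCI-H929 minus MM1.S, was 2.24 on the log2 scale and passed the test (limma, Benjamini-Hochberg adjusted p = 0.00386; from 5.84e-07 to 0.127 over the alternatives). TP73 also went in opposite directions on all arrays, lower with shSIRT6 in NCI-H929 and higher in MM1.S, a difference of −1.09. This difference was not tested, since TP73 was chosen with its value in MM1.S known. Its NCI-H929 part, −0.24 ± 0.12 (SE), did not pass (limma, Benjamini-Hochberg adjusted p = 0.396). The levels there, 3.42 to 3.76, were not far above the filter at 3.045. Arrays of the constructs did not overlap, in one direction or the other, for 46.6% of all genes in NCI-H929 and 50.7% in MM1.S.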

How the results depend on the processing

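The counts of the listed genes called kept their values under all alternatives run (0, 0 and 0 for the hairpin contrasts and their difference, 3 and 4 between the lines). The count of 4, with shSIRT6, includes PURPL, which is given here as a description. No named gene with a call changed sign. For the wider list the main counts with the hairpin were 2 in MM1.S, 1 in NCI-H929 and 1 for the difference. With a trended, robust variance model they were 6, 5 and 5 (948 of all genes against 169 in MM1.S, and 196 against 3 in NCI-H929). With the replicate number as a block they were 0, 0 and 0, and with the arrays of a line alone 0 and 0. In NCI-H929 the count was also 0 with the mean of rows, no filter, quantile normalization, cyclic loess and array weights. Leaving out 1 array gave 0 to 2 in MM1.S, 0 to 0 in NCI-H929 and 1 to 1 for the difference. Between the lines with shSIRT6 it gave 15 to 20, against 23, with 15 without MM1.S shSIRT6 replicate 2. The block changed no call of a listed gene; it ended those of SESN2 (adjusted p = 0.0876 in MM1.S, 0.284 in NCI-H929 and 0.127 for the difference) and LINC-PINT (0.0979). The cause of these changes was not tested. The fits with 1 array left out, with the arrays of a line alone or with the block also had fewer arrays or degrees of freedom. PURPL, which carries no test for the hairpin, changed sign in NCI-H929 (main −0.03) with quantile normalization (0.0225), cyclic loess (0.0366) and 1 array left out (−0.1 to 0.04), in MM1.S with 1 array left out (−0.53 to 0.15) and likewise for the difference (−0.18 to 0.5). Signal over background is unknown, which limits genes with low levels, among them TP73 in NCI-H929 and PURPL and CDKN2A in MM1.S.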
